A study of Mus musculus with 9 samples.

Results

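The Dppa4 and Dppa2 genes lie next to each other on mouse chromosome 16, and they encode a pair of related nuclear proteins that share a SAP domain, a DNA-binding fold. Both genes are known as markers of pluripotent cells and early germ cells. Their products bind each other and sit on chromatin, where they are known to activate genes of the early embryo, among them Dux, and to keep many developmental promoters free of DNA methylation. The question here is whether DPPA4 protein was found on the chromatin of its own gene and of its partner's gene. The stretch examined was chromosome 16 from 48200000 to 48400000 in the mm9 assembly, a window of 200 kb. The gene pair was taken to lie between 48.28 and 48.32 Mb, and this position was not checked against an mm9 annotation. Of the 229345 DPPA4 peaks in the series, 10 overlapped the window by at least 1 bp.

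The peaks came from chromatin immunoprecipitation followed by sequencing (ChIP-seq) with an antibody against DPPA4. Each of 3 cell lines gave 2 immunoprecipitated libraries with a peak list each. E14 is a mouse embryonic stem cell line, kept here in 2i medium with a little serum and no feeder cells. P19 is a mouse embryonal carcinoma line grown in serum, and 3T3 is a mouse fibroblast line grown in the same way that carried Dppa4 ectopically. The sources used here do not name the vector, its promoter, the level of DPPA4 reached or whether the cells were 1 clone. The E14 lists were 61693 and 43443 peaks long, those of P19 40011 and 51196, and those of 3T3 15462 and 17540. Every listed peak carries a score from the authors' peak caller that starts at 50, and the number of reads behind a list is unknown. Scores were turned into percentiles within a list, with 100 for the strongest peak, because their scale is not named. The labels do not state separate cultures for replicates, and their spread may be a technical one.

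The 10 DPPA4 peaks in the window were mostly weak and all came from the pluripotent lines, with none in the fibroblasts with ectopic Dppa4. E14 replicate 1 and E14 replicate 2 had 3 peaks each. P19 replicate 1 and P19 replicate 2 had 2 peaks each. 3T3 replicate 1 and 3T3 replicate 2 had 0. The count was the same in both replicates of each line, and the 3T3 lists were the shortest of the series. The differences were 1 peak for E14 against P19, 3 for E14 against 3T3 and 2 for P19 against 3T3, each with an exact two-sided permutation p of 0.333, the smallest that 2 libraries against 2 can give. The covered length was 936 bp in E14 replicate 1 and 1775 bp in E14 replicate 2. It was 501 bp in P19 replicate 1, 861 bp in P19 replicate 2 and 0 bp in 3T3. The mean covered length was 1356 ± 593 bp (SD, n = 2) in E14 and 681 ± 255 bp (SD, n = 2) in P19 (exact two-sided permutation p = 0.333). The replicates of E14 differed by more than the line means did. Over the whole lists the median peak width also differed, at 411 bp in E14 replicate 1 and 772 bp in E14 replicate 2. The medians of P19 were 453 and 540 bp. Scores ran from 51.14 to 203.54, and 7 of the 10 peaks scored below the median of their own list. Widths ran from 232 to 657 bp, and 9 of the 10 peaks were narrower than the median peak of their list.

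Merged over the 6 libraries, the 10 peaks formed 5 regions, called A to E in the order of their position. Of these, 4 were found in 2 libraries at most, a kind that made up 51.3% of the 77706 merged regions of the genome. None of the 5 had a 3T3 peak, as held for 75.5% of the merged regions. A and B lay before the gene pair. C, D and E lay inside the interval given for it. The stretch from 48296853 to 48320000, the last 23.1 kb of that interval, had no peak in any library. In the gene table at hand, which belongs to the GRCm38 assembly and was used for the order of genes alone, Dppa4 comes first and Dppa2 follows with no gene between them. The pseudogene Gm7204 precedes the pair. The long noncoding RNA Gm5485 and Morc1, a gene known for the silencing of transposons in male germ cells, follow it. No region was assigned to a promoter, exon or intron, since no mm9 annotation was used here.

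**Figure D1:**
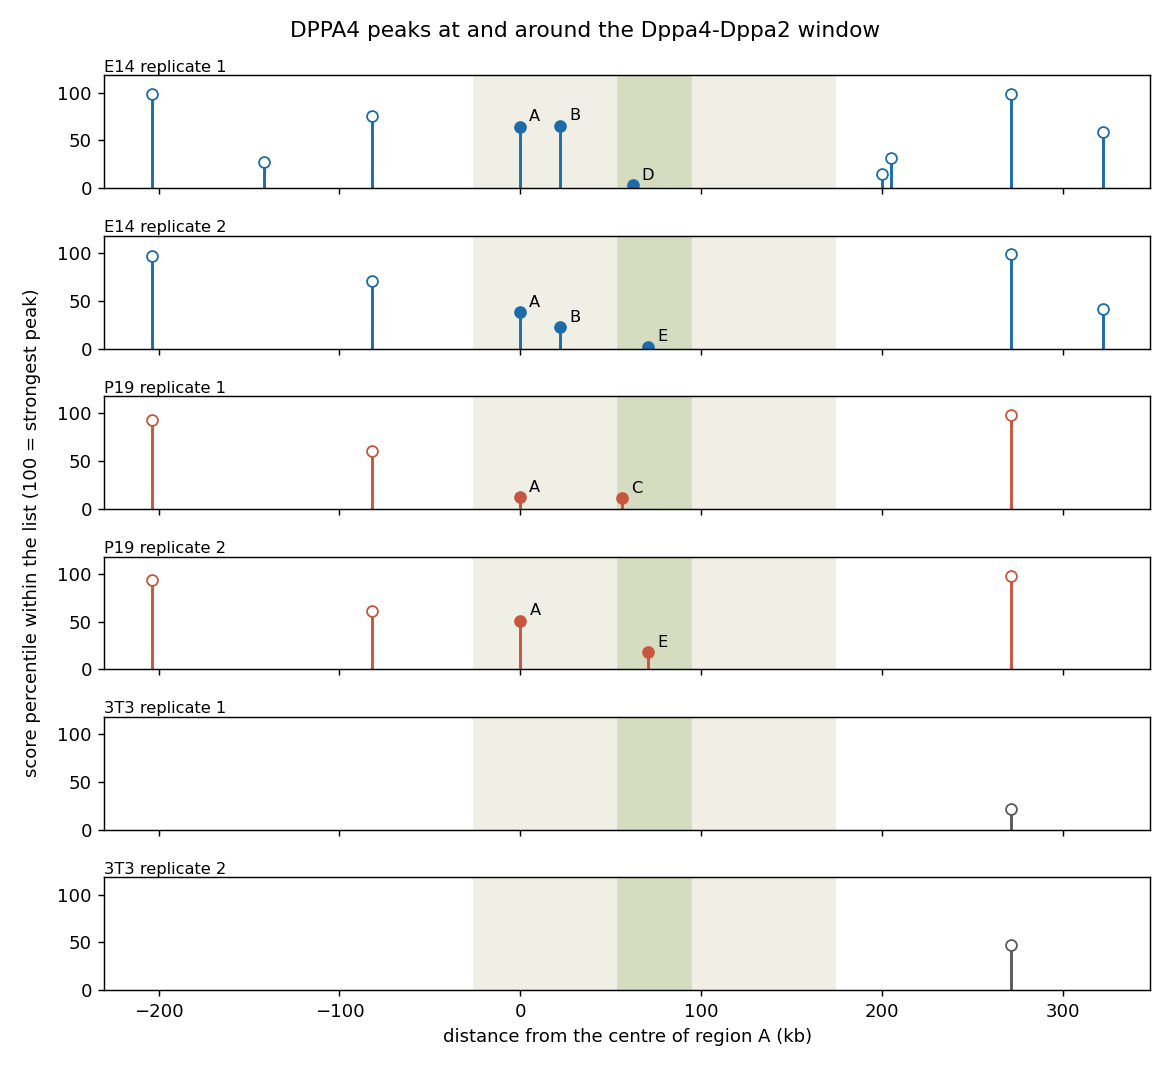
Position (horizontal axis, kb from the centre of region A) and score percentile within the list (vertical axis, 100 for the strongest peak) of the peaks of each library, with filled points for the window's peaks and open points for the best peak of each neighbouring region. Pale shading marks the 200 kb window and darker shading the 40 kb interval of Dppa4 and Dppa2, where the filled points of C, D and E all lie at a percentile of 18.1 or less and both 3T3 libraries are empty.

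Region A was the single place in the window with a peak in all 4 libraries of the pluripotent lines. It spanned chromosome 16 from 48225528 to 48226184, 53.8 kb before the interval of the genes. In E14 replicate 1 its peak scored 196.44, was 462 bp wide and ranked 21940 of 61693. In E14 replicate 2 the peak scored 95.97, was 657 bp wide and ranked 26926 of 43443. In P19 replicate 1 the peak scored 58.08, was 248 bp wide and ranked 35016 of 40011. The last of the 4 peaks, in P19 replicate 2, scored 142.19, was 454 bp wide and ranked 25106 of 51196. As percentiles these were 64.4 and 38.0 in E14 and 12.5 and 51.0 in P19. The ranges of the lines overlapped, so the place of region A in the lists did not separate E14 from P19. The midpoints of the 4 peaks fell within 60 bp of each other. Over the genome, 25503 merged regions had a peak in all 4 of these libraries. The mean percentile of region A was 41.5, against a median of 69.1 for those regions, and 11.9% of them had a mean percentile as low or lower. Region A was thus among the weaker of the regions found in all E14 and P19 libraries.

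No 3T3 peak overlapped region A, and this was usual for regions of its kind. Of the 25503 regions in all E14 and P19 libraries, 58.3% had no peak in either 3T3 library. Of the 2492 such regions whose mean percentile lay within 5 points of that of region A, 72.9% had none. The absence of region A from the 3T3 lists does not set it apart from regions of like strength.

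Region B was found in both E14 libraries and in neither P19 library. It spanned chromosome 16 from 48247524 to 48248165, 31.8 kb before the interval of the genes and 21.3 kb after region A. In E14 replicate 1 its peak scored 203.54, was 232 bp wide and ranked 21378 of 61693, at percentile 65.3. In E14 replicate 2 its peak scored 70.38, was 642 bp wide and ranked 33577 of 43443, at percentile 22.7. The first of these values is the highest percentile reached by any peak of the window. The narrowest peak of the window was thus also the best ranked one. Over the genome 36929 regions were found by the E14 libraries together. Of them, 14.2% lacked a P19 peak, while 12.5% lacked both a P19 and a 3T3 peak. These shares cover regions of any strength and were not matched to the percentiles of region B. Whether B differs in binding between the lines was not tested, because the lists hold no signal for places without a peak.

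In each E14 and P19 library, the peak inside the interval of Dppa4 and Dppa2 had the lowest score of that library's window peaks, and no line had the same peak in both of its libraries. Region C, from 48281949 to 48282201, was a peak of P19 replicate 1 alone, with a score of 57.15, a width of 253 bp and percentile 11.5. It lay 33.8 kb after region B. Region D, from 48287797 to 48288038, was a peak of E14 replicate 1 alone, with a score of 51.74, a width of 242 bp and percentile 3.47. It lay 5.6 kb after C. Both scores were close to 50, where the lists begin. Region E, from 48296364 to 48296852, joined a peak of E14 replicate 2 (score 51.14, width 476 bp, percentile 2.08) and a peak of P19 replicate 2 (score 65.39, width 407 bp, percentile 18.1). The midpoints of these peaks lay 47.5 bp apart. Region E was therefore found in 1 library of each pluripotent line. Of the 77706 merged regions of the genome, 4645 were found in exactly 1 E14 and 1 P19 library and in no 3T3 library. The same libraries as region E held 752 of these, 0.97% of all merged regions.

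Of the 4 peaks in the interval of the genes, 0 overlapped a peak of the other library of their line, against 6 of the 6 peaks elsewhere in the window. Over whole lists, the share of peaks that overlapped a peak of the other library was 66.7% in E14 replicate 1, 86.5% in E14 replicate 2, 87.7% in P19 replicate 1 and 65.2% in P19 replicate 2. Low scores go with lower shares. In the lowest 10% of scores, the shares were 27.3%, 55.6%, 56% and 18.5% in the same order. Both E14 peaks of the interval belonged to that lowest part. Both P19 peaks lay above it, at percentiles 11.5 and 18.1, and no share was computed for that range of scores. Peaks found in a single library are common, and 34% of all merged regions were of that kind, among them regions C and D. Each E14 and P19 library had 1 peak in the 40 kb of the interval. In the other 160 kb of the window each E14 library had 2 and each P19 library 1. Counts of 1 and 2 are too small to compare densities within the window.

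The number of peaks in the window was ordinary for a stretch of its length. Among 12917 windows of 200 kb along the genome, the median count was 3 in E14 replicate 1, 2 in E14 replicate 2, and 2 in both P19 replicate 1 and P19 replicate 2. Windows with as few peaks as the one of Dppa4 and Dppa2, or fewer, made up 58.9% of the windows in E14 replicate 1 and 70.7% in E14 replicate 2. The shares were 61.7% in P19 replicate 1 and 52.5% in P19 replicate 2. Windows with no peak made up 54.9% in 3T3 replicate 1, 46.6% in 3T3 replicate 2 and 43.2% in both together. The mean per window exceeded the median in all 6 libraries, with means of 4.75 and 3.35 for E14, 3.08 and 3.95 for P19, and 1.19 and 1.35 for 3T3. The locus of Dppa4 and Dppa2 was therefore neither rich in DPPA4 peaks nor unusual in lacking them.

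**Figure D2:**
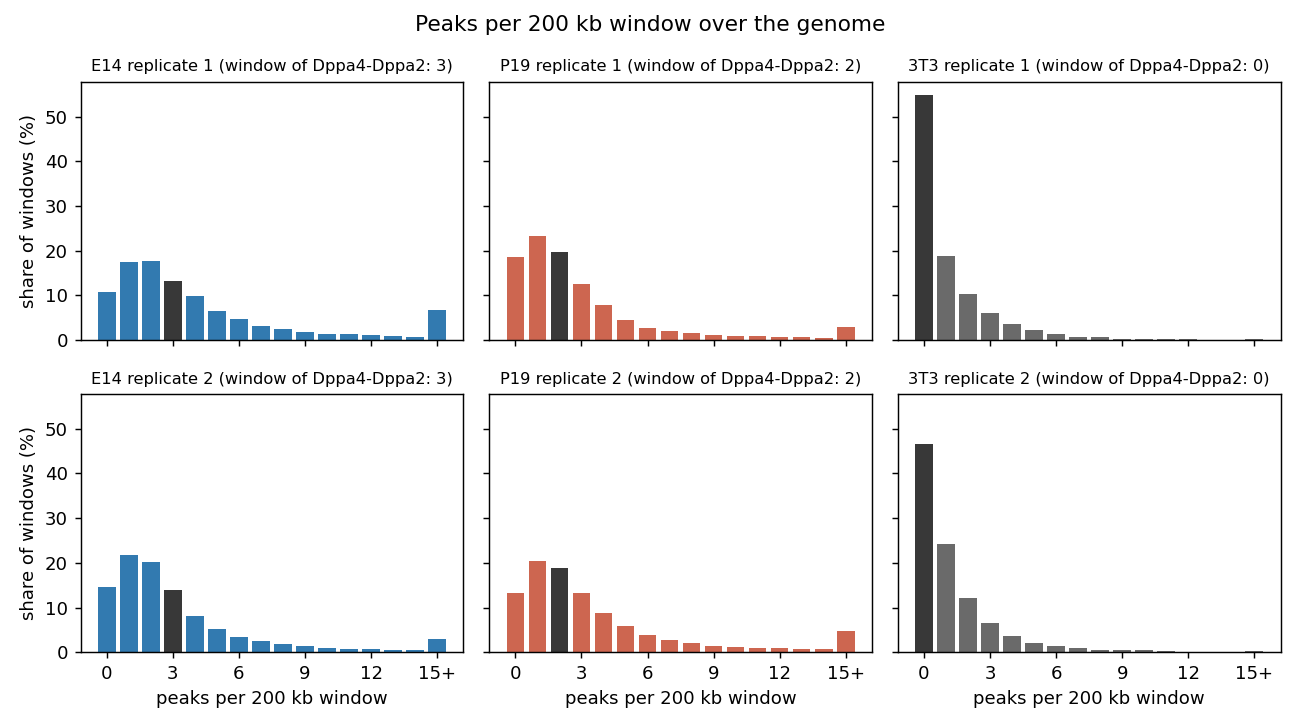
Share of the 12917 windows of 200 kb (vertical axis, %) by the number of peaks they hold (horizontal axis, with 15 or more pooled in the last bar), 1 panel per library. The dark bar marks the count of the Dppa4 and Dppa2 window, which is 3 in E14, 2 in P19 and 0 in 3T3 and sits in the populated left part of every panel.

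The profile of counts was not unique to this window. The identical counts in all 6 libraries were found in 44 of the 12916 other windows, all at a distance of 0 in ranked counts. The first 3 of them in genome order lay on chromosome 1, from 68400001 to 68600000, from 160400001 to 160600000 and from 166600001 to 166800000. Leaving the fibroblasts aside, 88 of the 12916 other windows had the counts of the Dppa4 and Dppa2 window in the 4 E14 and P19 libraries. Of these, 50% had no peak in either 3T3 library.

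The fibroblasts carried extra Dppa4 sequence through the ectopic construct, and sequence that matches a gene's exons would be aligned to the gene itself. No peak of either 3T3 list marked the Dppa4 gene or any other place in the window. The form of the construct, as a cDNA or a genomic copy, is not stated in the labels. Nor is it stated whether the input library served as the control in peak calling. The lists cannot show whether reads from the construct were present below the threshold of a peak. The nearest 3T3 peaks lay far from the gene pair. Before the window, the closest peak ended 823.4 kb before the window in 3T3 replicate 1 and 823.3 kb in 3T3 replicate 2. It scored 54.75 and 146.23. After the window the closest peak began 97.1 and 96.7 kb away and scored 50.31 and 139.84.

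Between these flanking peaks both 3T3 lists were empty for 1120 kb. The stretch common to both ran from 47376703 to 48496654. Of the gaps between neighbouring peaks in the genome, 2.99% were as long or longer in 3T3 replicate 1 and 1.82% in 3T3 replicate 2. Gaps of this length or longer took up 33.7% and 21.2% of the summed gap length. Sequence that cannot hold peaks, such as unassembled bases, was not taken out of these sums. The same stretch held 14 and 11 peaks in E14 and 9 and 9 in P19. These formed 16 merged regions, 8 of them with a peak in all 4 libraries. Of all merged regions without a 3T3 peak, 25.3% had one in all 4, and counts as small as 8 of 16 are given as a description. Per Mb, E14 had 12.5 and 9.82 peaks there, against 23.7 and 16.7 along the whole span of the peaks, and P19 had 8.04 and 8.04, against 15.4 and 19.7. The stretch was delimited by its lack of 3T3 peaks, and the genome values are means, which lie above the typical window, so these densities are a description alone.

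The contrast between the pluripotent lines and the fibroblasts at this locus was lost when the lists were cut to equal length. The best ranked window peak stood at place 21378 in E14 replicate 1, 26926 in E14 replicate 2, 35016 in P19 replicate 1 and 25106 in P19 replicate 2. All of these places lie beyond the end of both 3T3 lists. With every list limited to its 15462 best peaks, the length of the shortest, the window held 0 peaks in all 6 libraries. With a score of at least 100 in every list, the mean count was 1.0 in E14, 0.5 in P19 and 0 in 3T3. From these lists, a lack of DPPA4 at the locus in 3T3 and peaks too weak for the shorter 3T3 lists cannot be told apart.

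**Figure D3:**
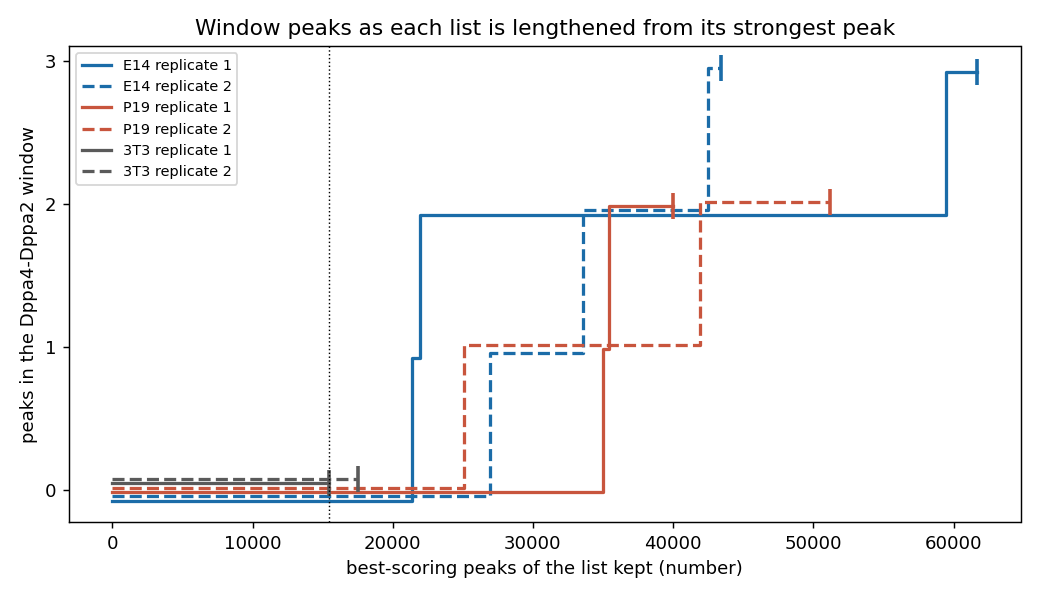
Number of peaks in the Dppa4 and Dppa2 window (vertical axis) as each list is extended from its strongest peak (horizontal axis, peaks kept), 1 line per library, shifted slightly so that they can be told apart, with a short upright bar at the end of each list. The dotted line marks 15462 peaks, and no E14 or P19 curve leaves 0 before that point.

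Stronger DPPA4 regions flanked the window at some distance, and weaker ones lay among them. The region nearest to the gene pair on the far side that all 6 libraries shared ran from 48496527 to 48498283, 96.5 kb after the window. It scored 1708.06 and 2197.03 in E14 and 3100 in both P19 libraries, at percentiles from 97.8 to 99.2. The value 3100 is shared by 1298 peaks of P19 replicate 1 and 1995 of P19 replicate 2, so these scores and percentiles do not order the region among those peaks. In 3T3 its best peaks scored 61.71 and 139.84, at percentiles 21.8 and 46.8. It was thus among the strongest regions of the pluripotent lines and below the median of the 3T3 lists. On the other side, a region from 48143297 to 48143942, 56.1 kb before the window, had a peak in all 4 E14 and P19 libraries and none in 3T3, scoring 313.41 and 237.58 in the E14 lists, then 172.64 and 197.17 in the P19 lists. Further out, 177.1 kb before the window, a region from 48021574 to 48022879 scored 1727.98 and 1153.06 in E14 and 1651.21 and 1896.62 in P19, again with none in 3T3. Each of these regions outranked every peak of the Dppa4 and Dppa2 window in each E14 and P19 library. Between region E and the first peak beyond the window, 128.9 kb held no peak in any of the 6 libraries. Of the gaps between merged regions in the genome, 5.78% were as long or longer, and these took up 38.9% of the summed gap length. Sequence that cannot hold peaks was not taken out of this sum either.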

How the data were processed

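Peak lists of 6 DPPA4 ChIP-seq libraries were used, and the 3 input libraries entered no comparison. Per the labels' protocols, chromatin came from sonicated nuclei and libraries were made with a Nextera kit. Tools in the submitters' processing notes are BWA 0.7.13-r1126, SAMtools 1.3, bcl2fastq 1.8 and CASAVA 1.8, with the genome build mm9. Each deposited list gives position, name and the score from the authors' peak caller, and no source used here states its scale, version, threshold or control. The peak names begin with MACS. Lists were called per library.

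Peaks overlapping the window by at least 1 bp were members. Peaks of all libraries that overlapped were merged into regions. Windows of 200 kb were tiled along the span of the peaks on placed chromosomes. All 5 regions of the window are named by the rule that takes every region or 3T3 peak there. The members and lists were chosen with earlier results of these data known. A planned count of promoter peaks over related genes was not run, since no mm9 annotation was used here. Code was tested on 2358 simulated sites and returned 100% of them in the right combination of libraries. Alternatives were shorter lists, a stricter score, other window bounds, other overlaps, shifted tiles, omission of each library and a replicate block. Line means were compared by exact permutation tests. Calculations ran in SciPy 1.17.1, pandas 2.3.3 and NumPy 2.4.6 under Python 3.11.15, and plots in Matplotlib 3.10.9. Coordinates are 1-based.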

Additional observations from a re-analysis of the deposited data

How the results depend on the processing

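The absence of 3T3 peaks from the window held under an overlap of 50% of the shorter peak, peaks of 500 bp, the best-scoring 50% of each list, a score of at least 100, lists of 15462 peaks and leaving out either library, all of which could only remove or resize peaks. With the window widened by 50% of its length on each side, 3T3 had 1.5 peaks and 1144 bp on average, E14 6.0 peaks and 3846.5 bp, and P19 4.0 peaks and 2800 bp. The highest percentile of a library, averaged over the 2 libraries of a line, was then 98.9 in E14 and 98.0 in P19, through the strong region after the window. In the window itself that mean was 51.7 in E14 (38.0 without replicate 1 and 65.3 without replicate 2) and 31.7 in P19 (51.0 without replicate 1 and 12.5 without replicate 2). With the window narrowed to its central 50%, E14 and P19 had 1.0 peak each, and 359 and 330 bp. With the best-scoring 50% of each list, and likewise with a score of at least 100, E14 had 1.0 peak and 347 bp and P19 0.5 peaks and 227 bp. Lists of 15462 peaks left 0 peaks and 0 bp in both. Regions found in both libraries of a line numbered 2 in E14 and 1 in P19, and 0 in each line under these 3 limits on the lists, since fewer peaks entered. With either library of a line left out, each peak of the remaining list counts as a region, which gave 3 in E14 and 2 in P19. These values are peak counts and do not bear on agreement between replicates. The share of windows with at least the locus's mean count was 46.3% in E14 and 59.0% in P19, and 43.2% had no peak in either 3T3 library. In the same order, these shares were 72.5%, 75.4% and 63.6% with the best-scoring 50%, 44.4%, 56.2% and 46.1% on chromosome 16 alone, and 50.2%, 64.0% and 38.4% among windows with a peak in any library. With the best-scoring 50%, the locus's own mean count was only 1.0 in E14 and 0.5 in P19. Those shares thus match a lower count than the others. By covered length the shares were 57.0% in E14 and 69.2% in P19. With lists of 15462 peaks the 3T3 share was 45.8%, and the E14 and P19 shares were not run because the locus then held no peak. With the replicate block, which pairs equal replicate numbers, the differences stayed at 1 peak for E14 against P19, 3 for E14 against 3T3 and 2 for P19 against 3T3 (674.5, 1355.5 and 681 bp of covered length), each with an exact sign-flip permutation p of 0.50, the smallest that 2 pairs can give. The labels give the replicate numbers no shared origin. The number of reads behind a list is unknown, so a place without a peak is not shown to be unbound.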
